A study of Mus musculus with 8 samples.

Results

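The comparison described here is the response of Dlx3 knockout cells to returned Dlx3: the 2 knockout libraries transduced with AdDlx3 were set against the 2 knockout libraries transduced with the control virus AdGFP, paired by replicate number. These are 4 of the 8 libraries of the study, and the remaining 4 are wild-type cells given the same viruses. The genes compared were the 11635 of 26202 listed genes that reached 1 RPKM (sequencing reads scaled to gene length and to library size) in at least 2 of the 4 knockout libraries. All groups were primary cells from skin epidermis of newborn pups (day 0 to 1), plated and transduced 24 h later. The control group was genotype Dlx3KO with an adenovirus encoding green fluorescent protein, and the treated group was genotype Dlx3KO with an adenovirus encoding Dlx3. The wild-type groups, used for the spread and for the difference between genotypes, were genotype Dlx3WT with the same viruses. The mice are labelled transgenic in every group. The promoter or Cre that made the knockout, the part of Dlx3 removed, the virus dose and the time from transduction to harvest are details that the sources used here do not give. Because the labels do not say that replicates were separate pups or cultures, p-values measure the spread between these libraries, which may be technical.

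Dlx3 is a homeobox transcription factor of the Distal-less family. In mouse and human it is needed in hair follicles, teeth, bone and placenta, and in the epidermis it is made mainly in the differentiating suprabasal layers. Epidermal keratinocytes leave a basal layer that makes the keratins Krt5 and Krt14, pass through a spinous layer with Krt1 and Krt10, and end in a granular and cornified layer built from loricrin, involucrin and small proline-rich proteins. The inner root sheath, a sleeve that moulds the growing hair, makes its own keratins, Krt25, Krt27, Krt28 and Krt71 among them, together with trichohyalin (Tchh).

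The knockout libraries held 107719975 and 124857742 alignments with AdGFP and 73688944 and 96234509 with AdDlx3. A library had 11011 to 11594 genes at 1 RPKM or more. Log values of replicate libraries correlated across genes at 0.958 in knockout AdGFP and 0.945 in knockout AdDlx3. The defining keratinocyte markers were present in every library. The summed RPKM of the 10 keratinocyte markers was 18968 and 13121 with AdGFP and 8056 and 1598 with AdDlx3, so the label held, with lower sums in both AdDlx3 libraries.

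Dlx3 itself (chromosome 11, 95120119 to 95125296, plus strand, GRCm38) was at 0.656 and 0.558 RPKM in the knockout AdGFP libraries (replicates 1 and 2, the order used for every gene) and at 402 and 539 RPKM in the AdDlx3 libraries. The groups lay far apart, and the rise of 8.72 ± 0.42 on the log2(RPKM + 0.5) scale (SE, 2 libraries a group) had a limma adjusted p of 0.000527. Log2 changes below are on this scale, and for genes of low RPKM they come out smaller than the true change. Viral and endogenous Dlx3 RNA were not told apart.

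In limma 2842 of the 11635 genes passed an adjusted p under 0.05, which is 24.4% of them; 2186 rose (18.8%) and 656 fell (5.64%). Among these, 894 rose and 435 fell at least 2-fold, and 165 rose and 118 fell at least 4-fold. Predicted gene models made up 73 of the rises and 13 of the falls. Of the genes tested, 404 reached the filter on low values only through the AdDlx3 libraries and 338 of these rose, and 72 reached it only through the AdGFP libraries and 54 of these fell; for such genes the filter itself favoured the direction. Both AdDlx3 libraries were above both AdGFP libraries for 4629 genes (39.8%) and below both for 1423 (12.2%).

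The count rests on the pairing and on the scale. Without the replicate block 698 genes passed, 579 higher (4.98%) and 119 lower (1.02%), and all 698 were among the 2842. The median of all genes was 0.21 higher in AdDlx3. Median-of-ratios scaling brought this median to 0.00, and 1124 genes then rose (9.66%) and 994 fell (8.54%), so 53.1% of the calls were rises in place of 76.9%. Leaving out knockout AdGFP replicate 2 left 444 calls, knockout AdDlx3 replicate 1 699, knockout AdGFP replicate 1 879 and knockout AdDlx3 replicate 2 1042. A call is named robust below where it held without the block, after scaling and without each of the 8 libraries, 10 settings in all; 259 genes were robust, 239 higher and 20 lower. A gene called but not named robust lost its call in at least 1 of these settings, and the adjusted p given for it holds for the paired fit. The 10 settings do not include the fit of the 4 knockout libraries alone with no block. That fit gave 180 calls, 140 higher and 40 lower, so a robust call need not hold in it.

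The replicate pairs differed in the size of many responses and, for some gene lists, in direction. The response of pair 1 and that of pair 2 correlated at 0.775 across genes, a description over genes that share libraries. In both pairs 610 genes rose at least 2-fold and 353 fell at least 2-fold, and 2 genes moved at least 2-fold in opposite directions. The median of the mitotic list was 0.40 in pair 1 and -0.40 in pair 2, and that of the replication and G1/S list 0.67 and -0.17.

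**Figure D1:**
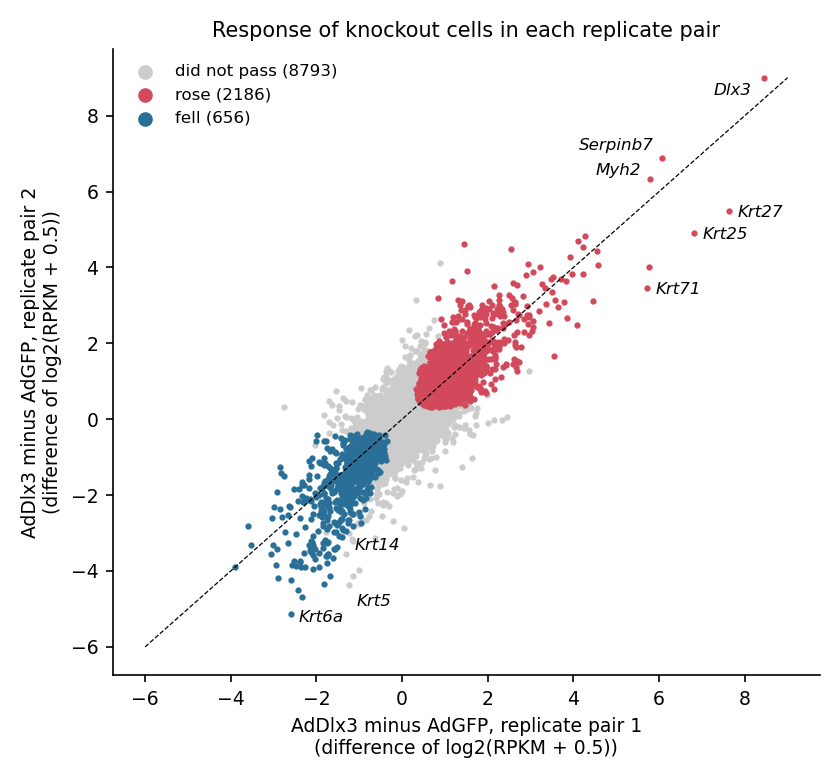
Response of each gene in replicate pair 1 (horizontal axis) and replicate pair 2 (vertical axis), as the difference of log2(RPKM + 0.5) between AdDlx3 and AdGFP in knockout cells; each point is a gene, coloured by limma call, and the dashed line marks equal response. Dlx3 and the inner root sheath keratins stand at the upper right; Krt6a, Krt5 and Krt14 lie below the line, with larger falls in pair 2 (-5.13, -4.37 and -3.55) than in pair 1 (-2.60, -1.25 and -1.30).

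Inner root sheath genes were among the largest rises, and Krt27 came next to Dlx3 itself. Krt27 (chromosome 11, 99345565 to 99351104, minus strand), a type I keratin, was at 0.0931 and 0.0972 RPKM with AdGFP and at 118 and 26.3 RPKM with AdDlx3. Krt25 (chromosome 11, 99315516 to 99322951, minus strand), a neighbouring type I keratin gene, went from 0.0275 and 0.0454 RPKM to 59.3 and 15.9 RPKM. Krt71 (chromosome 15, 101733949 to 101743109, minus strand), a type II keratin that can pair with them, went from 0.0512 and 0.0697 RPKM to 28.7 and 5.78 RPKM. Each was near absence in both AdGFP libraries, and each was several-fold higher in AdDlx3 replicate 1 than in AdDlx3 replicate 2. The log2 rises were 6.56 ± 0.55 for Krt27, 5.87 ± 0.59 for Krt25 and 4.59 ± 0.61 for Krt71, with limma adjusted p of 0.00255, 0.00325 and 0.00556. Tchh, which encodes a protein that crosslinks keratin filaments in the sheath, was already measurable at 3.51 and 2.06 RPKM and reached 22.2 and 14.7 RPKM, a rise of 2.54 ± 0.20 (adjusted p = 0.00216). Krt28, another type I sheath keratin, went from 0.00747 and 0.0477 RPKM to 1.94 and 1.47 RPKM (2.06 ± 0.30, adjusted p = 0.00690). Its call was lost without knockout AdGFP replicate 2 (0.0590). Krt25, Krt27, Krt71 and Tchh were robust.

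Of the 12 genes on the inner root sheath list, 6 reached the filter on low values, and 5 of these rose. Krt25, Krt27, Krt28 and Krt71 reached it only through the AdDlx3 libraries, so this count is a description and not support. The transglutaminase gene Tgm3, the remaining tested member, differed by 0.62 ± 0.50 and did not pass (adjusted p = 0.392). Below the filter, Krt73 was at 0.437 and 0.0185 RPKM with AdGFP and 4.26 and 0.257 RPKM with AdDlx3, and the trichohyalin-like gene Tchhl1 at 0.0161 and 0.00979 RPKM against 0.740 and 0.432 RPKM. Krt72 was at or near 0 in all 4 libraries. Krt74 was lower in both pairs, at 0.140 and 0.0954 RPKM with AdGFP and 0.0587 and 0.0379 RPKM with AdDlx3. Padi3 was higher in pair 1 (0.457 to 1.75 RPKM) and lower in pair 2 (0.869 to 0.716 RPKM). Krt26 was at 0 RPKM with AdGFP and at 0.270 and 0.0366 RPKM with AdDlx3. In these bulk cultures a change in the share of cells that make a gene and a change in its RNA per cell cannot be told apart.

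The promoters of the largest rises are shown because homeodomain proteins of this family bind DNA with a TAATT core. The 250 bases before the RefSeq start of the gene (build GRCm38.p6) are printed 5′ to 3′ on the gene's strand, for the 5 largest rises with an entry in the RefSeq promoter table, and every TAATT on either strand (AATTA on the printed strand) is in capitals. The windows are chr11:99351119-99351368 for Krt27 (minus strand), chr11:99322952-99323201 for Krt25 (minus), chr15:101743098-101743347 for Krt71 (minus), chr1:107422439-107422688 for Serpinb7 (plus) and chr11:67170777-67171026 for Myh2 (plus).
Krt27: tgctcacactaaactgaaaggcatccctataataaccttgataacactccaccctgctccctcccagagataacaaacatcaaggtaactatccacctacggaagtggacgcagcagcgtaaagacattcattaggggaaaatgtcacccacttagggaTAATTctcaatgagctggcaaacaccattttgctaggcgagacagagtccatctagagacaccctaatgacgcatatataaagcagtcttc
Krt25: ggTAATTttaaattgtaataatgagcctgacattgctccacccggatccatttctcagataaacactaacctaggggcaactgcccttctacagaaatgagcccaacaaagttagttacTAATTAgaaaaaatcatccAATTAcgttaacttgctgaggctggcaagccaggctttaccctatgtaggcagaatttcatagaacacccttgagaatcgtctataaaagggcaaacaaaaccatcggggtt
Krt71: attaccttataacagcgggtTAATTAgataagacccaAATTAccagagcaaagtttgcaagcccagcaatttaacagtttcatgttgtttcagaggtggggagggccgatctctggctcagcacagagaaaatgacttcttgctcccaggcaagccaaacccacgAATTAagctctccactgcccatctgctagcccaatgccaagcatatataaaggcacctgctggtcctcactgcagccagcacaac
Serpinb7: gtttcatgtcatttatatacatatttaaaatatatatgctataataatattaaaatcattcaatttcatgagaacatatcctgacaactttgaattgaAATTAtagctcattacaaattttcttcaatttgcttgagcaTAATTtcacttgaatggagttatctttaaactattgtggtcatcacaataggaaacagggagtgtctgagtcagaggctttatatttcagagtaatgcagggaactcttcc
Myh2: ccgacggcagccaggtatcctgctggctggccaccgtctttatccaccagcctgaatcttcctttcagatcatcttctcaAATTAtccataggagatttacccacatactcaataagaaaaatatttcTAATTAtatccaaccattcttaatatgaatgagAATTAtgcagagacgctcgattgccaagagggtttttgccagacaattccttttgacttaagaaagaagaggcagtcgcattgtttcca
A run of TAATTA holds the motif on both strands and counts as 2 overlapping matches. Krt27 had 1 match, which began 91 bases before the start. Krt25, Krt71 and Myh2 had 4 matches each and Serpinb7 had 2. The Serpinb7 window lies inside the GENCODE span of the gene, which begins at 107399655, so it precedes the RefSeq start only. Of the 14 largest rises beside Dlx3, 12 had a promoter in the table and 7 of these held the motif (58.3%): the 5 above, Uncx and Cldn7. The motif was in 14.6% of the 9299 promoters matched to tested genes, in 25.4% of all 27025 promoters, and in 2 of 9 promoters among the 15 largest falls (Casq2 and Hopx). No set of promoters of similar RPKM with AdGFP or similar base content was drawn, so these shares are a description. A match is a run of letters and not a binding site, and binding was not measured in these libraries.

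The other large rises were of a protease inhibitor, a muscle myosin, an imprinted gene and regulators of several tissues. Serpinb7 (chromosome 1, 107399655 to 107452689, plus strand), a serine protease inhibitor made in human cornifying epidermis, was at 1.16 and 0.236 RPKM with AdGFP and at 111 and 85.7 RPKM with AdDlx3. Myh2 (chromosome 11, 67171027 to 67197517, plus strand), a fast skeletal muscle myosin heavy chain, went from 0.0128 and 0.0174 RPKM to 27.7 and 40.9 RPKM. Peg10 (chromosome 6, 4747306 to 4760517, plus strand), an imprinted gene derived from a retrotransposon and needed in the mouse placenta, went from 0.220 and 0.748 RPKM to 38.5 and 19.5 RPKM. Their groups lay far apart, and the rises were 6.47 ± 0.25, 6.05 ± 0.40 and 4.88 ± 0.47 (limma adjusted p = 0.000527, 0.00136 and 0.00305). Cldn7 (chromosome 11, 69964779 to 69967885, plus strand), a tight junction claudin, went from 1.42 and 2.29 RPKM to 35.6 and 39.1 RPKM, a rise of 4.03 ± 0.24. Uncx, a homeobox gene of the somites, went from 0.00553 and 0.0369 RPKM to 7.18 and 9.93 RPKM (4.10 ± 0.24). In both genes the groups lay far apart. The CBP/p300-interacting gene Cited4 rose by 4.32 ± 0.34, Mlf1 by 4.50 ± 0.19, Tmem35a by 4.40 ± 0.23, Klhl29 by 4.38 ± 0.29 and the cell cycle regulator gene Rgcc by 3.89 ± 0.19. The change of Dlx1as was a rise of 4.55 ± 0.22. It overlaps Dlx1 on the opposite strand, and since no source says whether counting used strand, reads of the 2 genes cannot be told apart. Each of these 15 genes, Dlx3 included, was robust and passed in every other setting run, among them no filter on low values. The 15 were taken as the largest rises, so this is a description. Dlx3, Uncx and Dlx1as were under 1 RPKM in both AdGFP libraries, as were Krt27, Krt25, Krt71, Myh2 and Peg10. These genes reached the filter only through the AdDlx3 libraries, which favoured a rise.

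By level alone, 11 genes were under 0.5 RPKM in both AdGFP libraries and at 5 RPKM or more in both AdDlx3 libraries, and 0 genes went the other way. Besides Krt27, Krt25, Krt71, Myh2, Dlx1as and Uncx these were Cdo1, Cpn1, Fam124a, Cracdl and Idi2. Cdo1, which encodes the enzyme that opens cysteine breakdown, went from 0.445 and 0.398 RPKM to 13.1 and 5.26 RPKM. Cpn1, a subunit gene of a blood carboxypeptidase, went from 0.168 and 0.107 RPKM to 8.17 and 7.38 RPKM. With 2 RPKM as the level for on, 33 genes went on and 2 went off.

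Most other genes of the muscle sarcomere stayed below the filter. Of 26 skeletal muscle contractile genes 4 reached the filter. Myh2, which reached it only through the AdDlx3 libraries, rose, the calcium store gene Casq2 fell, and Mylpf and Tnni2 did not pass. The neighbouring fast myosin gene Myh1 was at 0.00184 and 0.00557 RPKM with AdGFP and at 0.913 and 1.18 RPKM with AdDlx3, and Myh4 at 0 and 0.00551 RPKM against 0.656 and 0.870 RPKM. The muscle determination gene Myod1 stayed under 0.1 RPKM in all 4 libraries and Myog as well. Myosin heavy chain genes are near copies of each other, and how the counting split shared reads is not given.

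**Figure D2:**
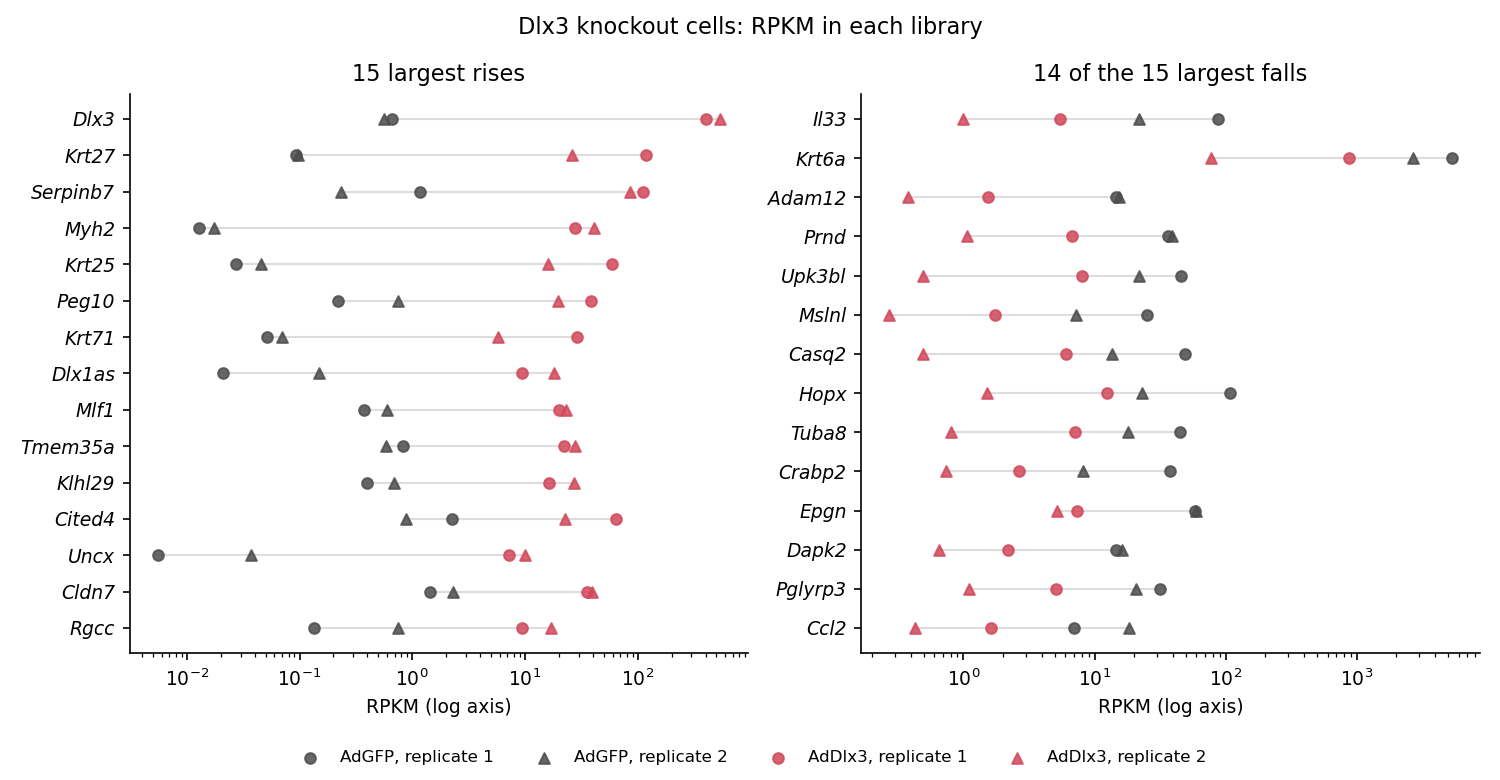
RPKM on a log axis in each of the 4 knockout libraries for the 15 largest rises (left) and 14 of the 15 largest falls (right); grey symbols are AdGFP, red symbols AdDlx3, circles replicate 1 and triangles replicate 2. Every rise starts below 3 RPKM in AdGFP, and in each fall drawn AdDlx3 replicate 2 is the lowest library (Krt6a 876 RPKM in AdDlx3 replicate 1 and 77.0 RPKM in replicate 2).

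The largest falls were led by Il33, Krt6a and Adam12. Il33 (chromosome 19, 29925114 to 29960718, plus strand), an alarmin released from damaged epithelium, was at 88.3 and 21.8 RPKM with AdGFP and at 5.46 and 0.996 RPKM with AdDlx3. Krt6a (chromosome 15, 101689910 to 101694307, minus strand), a keratin induced in wounds, was at 5315 and 2716 RPKM and then at 876 and 77.0 RPKM. Adam12, a membrane metalloproteinase gene, was even between AdGFP libraries at 14.5 and 15.4 RPKM and fell to 1.53 and 0.377 RPKM. In each gene the libraries did not overlap, and AdDlx3 replicate 2 was the lowest of the 4. The log2 changes were -3.90 ± 0.33 for Il33, -3.87 ± 0.95 for Krt6a and -3.53 ± 0.50 for Adam12 (limma adjusted p = 0.00255, 0.0297 and 0.00660). Epgn, the epidermal growth factor receptor ligand epigen, fell from 59.0 and 59.5 RPKM to 7.32 and 5.13 RPKM (-3.17 ± 0.41, adjusted p = 0.00519) and was robust.

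Hopx, a homeodomain-only gene of differentiating keratinocytes, fell by 3.31 on the log2 scale, and Crabp2, which carries retinoic acid into the nucleus, by 3.20. The tubulin gene Tuba8 fell by 3.20, the kinase gene Dapk2 by 3.17, the peptidoglycan recognition gene Pglyrp3 by 3.13 and the chemokine gene Ccl2 by 3.08. Prnd, Upk3bl, Mslnl and Casq2 changed by -3.51, -3.47, -3.42 and -3.39. In the paired fit adjusted p ran from 0.00255 for Crabp2 to 0.0405 for Ccl2 over these 10 genes. Of the 15 falls 3 (Adam12, Epgn and Dapk2) passed without the block, where adjusted p of the others reached 0.191 for Krt6a. Without knockout AdGFP replicate 2, 5 of the 15 passed, against 9 without knockout AdDlx3 replicate 1, 8 without knockout AdDlx3 replicate 2 and 10 without knockout AdGFP replicate 1, with the highest adjusted p for Ccl2 (0.231). All 15 passed without each wild-type library, and 7 with no filter on low values.

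Krt5 and Krt14, the keratins of the basal layer, were among the 3 genes with the largest loss of mean RPKM, with Krt17, but did not pass. Krt5 was at 7922 and 6223 RPKM with AdGFP and at 3330 and 299.8 RPKM with AdDlx3. Krt14 was at 6336 and 4075 RPKM and then at 2575 and 348 RPKM. In both genes all AdDlx3 libraries were lower than all AdGFP libraries, and on the log2 scale the change in pair 2 (-4.37 and -3.55) was larger than that in pair 1 (-1.25 and -1.30). The log2 changes were -2.81 (SE 1.005) and -2.42 (SE 0.81) (limma adjusted p = 0.0852 and 0.0718). Of 17 basal layer genes 2 rose, 3 fell and 12 did not pass, with a median change of -0.75. Over all genes 18.8% rose and 5.64% fell. The anchoring collagen gene Col7a1 fell from 146 and 105 RPKM to 64.7 and 22.7 RPKM (-1.68 ± 0.42, adjusted p = 0.0305). The integrin gene Itga2 rose by 1.27 ± 0.34 and the plakin gene Dst by 0.64 ± 0.16 (adjusted p = 0.0395 and 0.0295), but after scaling 0 basal genes rose (0.0878 and 0.110) and 4 fell. The basal master regulator gene Trp63 (-1.20 ± 0.42, adjusted p = 0.0820) and the hemidesmosome gene Itgb4 (-0.91 ± 0.33, 0.0867) did not pass.

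Wound-activated genes fell in part: 6 of 15 fell and 1 rose, against 5.64% and 18.8% of all genes. Krt17 dropped from 6639 and 5246 RPKM to 2786 and 1075 RPKM (-1.77 ± 0.47, limma adjusted p = 0.0368). Krt16 dropped from 2229 and 364 RPKM to 431 and 23.9 RPKM (-3.13 ± 0.78, adjusted p = 0.0314), so its groups overlapped although it fell within each pair. Krt6b followed, from 327 and 21.8 RPKM to 39.9 and 1.73 RPKM (-3.17 ± 0.74, adjusted p = 0.0258), and its groups overlapped as well. The gelatinase gene Mmp9 (-1.31 ± 0.24) and the urokinase receptor gene Plaur (-1.09 ± 0.22) fell too, whereas the collagenase gene Mmp13 rose by 1.43 ± 0.31 from 3.22 and 1.65 RPKM to 9.75 and 5.21 RPKM. The groups of Mmp13 did not overlap. Nor did those of Areg, an epidermal growth factor receptor ligand gene, which was at 1.43 and 1.33 RPKM with AdGFP and 3.08 and 31.2 RPKM with AdDlx3 and did not pass (adjusted p = 0.0901).

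Among 15 spinous genes 8 fell and 0 rose, against 5.64% and 18.8% of all genes, with a median change of -1.32. Sfn (stratifin), which restrains the cell cycle in differentiating cells, dropped from 1916 and 1428 RPKM to 578 and 152 RPKM (-2.48 ± 0.60, limma adjusted p = 0.0284). The desmosome and adherens junction gene Jup fell by 1.52 (SE 0.26), Krtdap by 1.69 (SE 0.37) and Serpinb5 by 1.19 (SE 0.16), with adjusted p of 0.0110, 0.0214 and 0.00560. The spinous keratins themselves did not pass and pointed in opposite directions. Krt1 was at 212 and 6.87 RPKM with AdGFP and at 58.8 and 1.08 RPKM with AdDlx3 (-2.03 ± 0.81, adjusted p = 0.113). Krt10, which pairs with Krt1 in filaments, was at 34.1 and 3.36 RPKM and then at 113.7 and 10.9 RPKM (1.64 ± 0.52, adjusted p = 0.0620). Both differed between replicates of a virus by more than between the viruses of a pair.

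The granular and cornified list split, with a rise of loricrin among falls and genes that did not pass. Lor (chromosome 3, 92080271 to 92083142, minus strand), the main protein of the cornified envelope, rose from 3.38 and 3.95 RPKM to 35.1 and 31.5 RPKM, by 3.02 ± 0.26 (limma adjusted p = 0.00255), and was robust. Of the 22 tested members Lor alone rose, 13 fell and 8 did not pass, while 18.8% of all genes rose and 5.64% fell. The list median was -1.10. Below the filter Flg2 was higher in both pairs, at 0.341 and 0.0738 RPKM with AdGFP and 1.69 and 0.732 RPKM with AdDlx3. Hrnr, Rptn, Padi1 and Padi2 were also higher in both pairs. Tgm5 and Dsg4 were lower in both, and Klk14 and Padi4 differed in direction between pairs. The desquamation protease gene Klk5 fell by 2.15 (SE 0.29), its inhibitor gene Spink5 by 2.19 (SE 0.32) and the cornification protease gene Casp14 by 2.13 (SE 0.30), at adjusted p of 0.00567, 0.00681 and 0.00653. Involucrin (Ivl), an early envelope protein, was low throughout and fell from 1.55 and 2.21 RPKM to 0.574 and 0.133 RPKM (-1.52 ± 0.33, adjusted p = 0.0207). Ivl reached the filter only through the AdGFP libraries. Falls were also found in 7 of 13 small proline-rich genes and rises in 0, against 5.64% and 18.8% of all genes. Sprr2g (-1.64 ± 0.27) and Sprr2k (-2.20 ± 0.40) led the falls, and Sprr2k reached the filter only through the AdGFP libraries. Among the 13 late cornified envelope genes Lce1l alone passed, rising from 0.932 and 1.22 RPKM to 2.22 and 2.53 RPKM (0.87 ± 0.24, adjusted p = 0.0433, and 0.0878 after scaling). Members of these families share sequence, so their split of reads is uncertain.

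**Figure D3:**
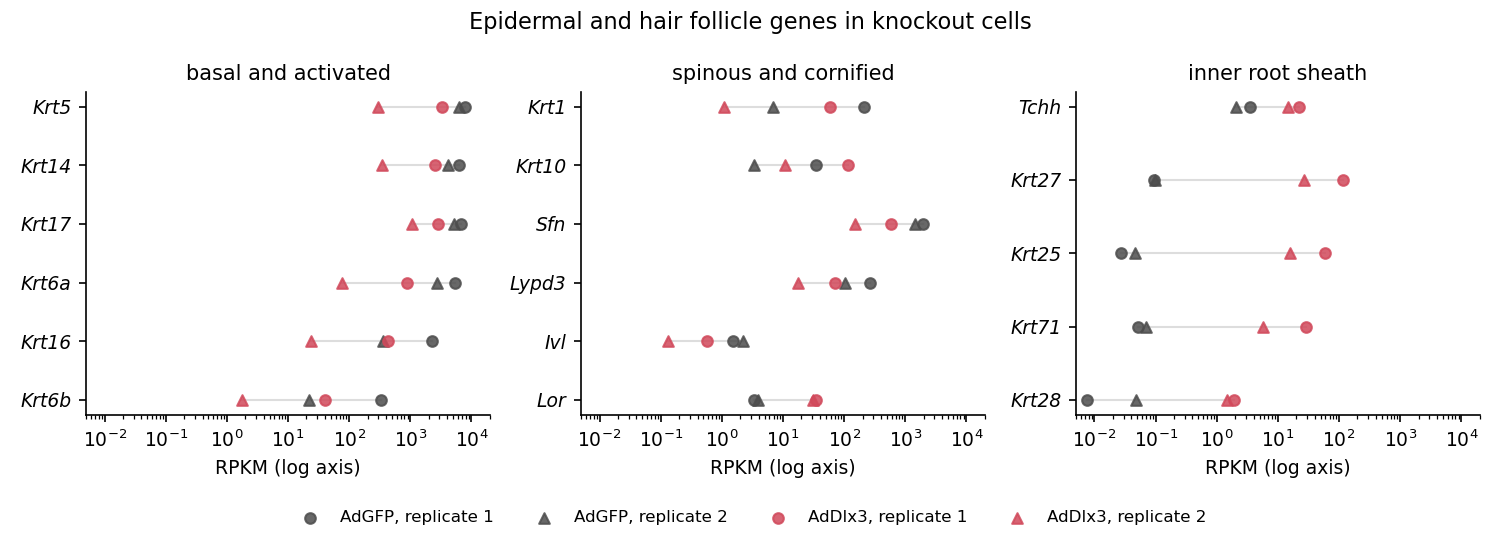
RPKM on a log axis in the 4 knockout libraries for basal and activated keratins (left), spinous and cornified genes (centre) and inner root sheath genes (right); grey symbols are AdGFP, red symbols AdDlx3, circles replicate 1 and triangles replicate 2. Inner root sheath genes and Lor move right with AdDlx3, the keratins of the left panel move left and most in replicate 2 (Krt5 to 299.8 RPKM), and Krt1 and Krt10 vary more between replicates than between viruses.

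Without the block, Lor and Sprr2k (adjusted p = 0.0384) were among the epidermal genes named above that passed, and the others did not. With 1 knockout library left out, every named call in the basal, wound, spinous and small proline-rich lists was lost at least once, with highest adjusted p from 0.0532 for Serpinb5 to 0.204 for Itga2, both without knockout AdGFP replicate 2. The calls of Ivl (0.134), Klk5 (0.0531) and Spink5 (0.0532) were lost without that library too, and that of Lce1l without knockout AdGFP replicate 1 (0.240).

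S100 genes, calcium-binding proteins encoded beside the cornified envelope genes, moved both ways: 3 of 12 rose and 2 fell, against 18.8% and 5.64% of all genes. S100a13 went from 4.95 and 4.84 RPKM to 13.6 and 14.3 RPKM (1.42 ± 0.15, limma adjusted p = 0.00385) and S100a1 from 5.03 and 3.71 RPKM to 17.0 and 12.9 RPKM (1.66 ± 0.19, adjusted p = 0.00412). Both were robust, and their groups lay well apart. S100a3, which reached the filter only through the AdGFP libraries, fell by 1.29 (SE 0.31, adjusted p = 0.0279), a call lost without the block (0.0730). After scaling 3 rose and 5 fell.

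Among 27 transcription factor genes of epidermal differentiation 10 fell and 2 rose, against 5.64% and 18.8% of all genes. Zfp750, a zinc finger activator of terminal differentiation, dropped from 62.7 and 18.5 RPKM to 9.07 and 1.94 RPKM (-2.84 ± 0.32, limma adjusted p = 0.00412). Prdm1 fell by 1.36, the vitamin D receptor gene Vdr by 2.15, the POU factor gene Pou3f1 by 2.32 and Ovol1 by 0.95. Tfap2b, an AP-2 factor gene, rose from 3.22 and 2.84 RPKM to 7.75 and 6.51 RPKM (1.11 ± 0.14, adjusted p = 0.00525). Klf4, a barrier regulator, was level at 69.6 and 69.1 RPKM against 76.4 and 74.7 RPKM (0.12 ± 0.14, adjusted p = 0.547). Of 7 AP-1 genes 3 fell, Fosl2 (-1.22 ± 0.21), Junb (-0.80 ± 0.20) and Fos (-1.25 ± 0.32), and 0 rose. Without the block Tfap2b kept its call (0.0257) and the named falls did not, with adjusted p from 0.0609 for Prdm1 to 0.292 for Ovol1.

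Of 20 hair follicle regulators 7 rose, 6 fell and 7 did not pass, against 18.8% and 5.64% of all genes, with a median of 0.24 beside 0.21 over all genes. Cux1, a homeobox gene active in the inner root sheath, rose from 5.50 and 4.67 RPKM to 20.8 and 20.7 RPKM (1.93 ± 0.19, limma adjusted p = 0.00313). The ectodysplasin receptor gene Edar rose from 0.142 and 0.132 RPKM to 1.06 and 1.14 RPKM (1.33 ± 0.17, adjusted p = 0.00490) and the gene of its adaptor, Edaradd, from 1.44 and 1.11 RPKM to 4.50 and 6.66 RPKM (1.76 ± 0.23, adjusted p = 0.00531). In these 3 genes both AdDlx3 libraries were above both AdGFP libraries. Edar reached the filter on low values only through the AdDlx3 libraries, as did Bambi, described below, so the count of rises is partly set by the filter. The follicle differentiation factor Foxn1 fell from 24.0 and 15.7 RPKM to 4.52 and 0.897 RPKM (-2.91 ± 0.61, adjusted p = 0.0191) and the outer root sheath and stem cell factor Sox9 from 49.99 and 46.2 RPKM to 11.4 and 4.23 RPKM (-2.69 ± 0.45, adjusted p = 0.0100). Shh, a follicle morphogen below the filter, was at 0.0125 and 0.0252 RPKM with AdGFP and 0.744 and 0.771 RPKM with AdDlx3. Cux1, Edaradd and Bambi were robust. Edar lost its call without knockout AdGFP replicate 2 (0.0549), and Foxn1 and Sox9 without the block (0.104 and 0.0616).

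Among other Dlx and Msx genes 3 reached the filter, Dlx1 only through the AdDlx3 libraries. Dlx1 rose from 0.0911 and 0.618 RPKM to 1.59 and 4.57 RPKM (2.001 ± 0.22, limma adjusted p = 0.00387), with the limit on strand given above. Msx2, a homeobox gene of the hair matrix, rose from 8.52 and 6.95 RPKM to 31.6 and 12.5 RPKM (1.31 ± 0.31, adjusted p = 0.0257). Dlx2 was level at 2.56 and 3.13 against 2.97 and 3.87 RPKM (0.22 ± 0.19, adjusted p = 0.410). Without the block neither Dlx1 nor Msx2 passed (0.118 and 0.112).

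In BMP and activin signalling 6 of 27 tested genes rose, 6 fell and 15 did not pass, against 18.8% and 5.64% of all genes. Of the rises 3 (Bambi, Id4 and Smad6) reached the filter only through the AdDlx3 libraries and 1 of the falls only through the AdGFP libraries, so these counts are a description and not support. The ligand gene Bmp2 rose from 3.53 and 2.63 RPKM to 11.02 and 8.34 RPKM (1.51 ± 0.17, limma adjusted p = 0.00386). The pseudoreceptor gene Bambi rose from 0.135 and 0.128 RPKM to 2.35 and 1.46 RPKM (1.90 ± 0.21, adjusted p = 0.00385), and the BMP target gene Id4 from 0.289 and 0.314 RPKM to 2.36 and 1.56 RPKM (1.60 ± 0.20, adjusted p = 0.00490). The activin subunit gene Inhba fell from 64.0 and 72.6 RPKM to 11.6 and 15.8 RPKM (-2.29 ± 0.25, adjusted p = 0.00385). All 4 were robust and their groups did not overlap. The secreted BMP antagonist gene Nog fell by 2.13 (SE 0.50), and the transducer gene Smad1 rose by 1.09 ± 0.14. Smad1 lost its call without knockout AdGFP replicate 2 (0.0549) and Nog without the block (0.0617).

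Of 35 Wnt pathway genes 7 rose, a share near the 18.8% of all genes, and 5 fell, against 5.64% of all genes. Among the rises 1 reached the filter only through the AdDlx3 libraries. The ligand genes Wnt4, Wnt7a, Wnt10b and Wnt9a were 4 of the 5 falls, beside the receptor gene Fzd6 (-0.52). Wnt4 fell from 174 and 102 RPKM to 51.3 and 6.90 RPKM (-2.77 ± 0.78, limma adjusted p = 0.0448) and Wnt7a from 31.8 and 34.6 RPKM to 11.1 and 3.62 RPKM (-2.28 ± 0.52, adjusted p = 0.0246). The receptor gene Fzd1 rose from 6.27 and 6.57 RPKM to 16.7 and 17.5 RPKM (1.35 ± 0.15, adjusted p = 0.00385) and was robust. The coreceptor gene Lrp4 rose by 1.53 ± 0.24 and the nuclear factor gene Lef1 by 0.90 ± 0.17. Without the block Wnt9a kept its call (0.0336), while Wnt4 (0.206), Wnt7a (0.0950), Lrp4 (0.0857) and Lef1 (0.0609) did not.

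Of the Notch pathway 6 of 14 genes fell and 1 rose, against 5.64% and 18.8% of all genes. The ligand gene Jag1 fell from 45.1 and 70.9 RPKM to 21.5 and 18.6 RPKM (-1.48 ± 0.27, limma adjusted p = 0.0127), the receptor gene Notch2 from 19.97 and 19.5 RPKM to 9.90 and 10.2 RPKM (-0.94 ± 0.18, adjusted p = 0.0142) and the target gene Hes1 from 42.4 and 35.7 RPKM to 20.4 and 12.1 RPKM (-1.28 ± 0.26, adjusted p = 0.0171). Of the coactivators, Maml2 fell by 1.62 (SE 0.28) and Maml1 rose by 1.07 ± 0.18. In the EGF family 3 of 15 genes fell and 1 rose, and the ligand gene Nrg1 fell with Epgn, from 6.78 and 15.2 RPKM to 1.63 and 2.79 RPKM (-2.01 ± 0.22, adjusted p = 0.00385), and both were robust; the feedback inhibitor gene Spry2 rose by 1.55 ± 0.20. Of 17 TGF-beta pathway genes 2 rose and 1 fell. Without knockout AdGFP replicate 2, adjusted p of Jag1 was 0.0983 and of Maml1 0.0886, and without the block that of Hes1 was 0.108 and of Spry2 0.0843.

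Of 28 inflammatory genes 12 fell and 1 rose, against 5.64% and 18.8% of all genes; without the block 2 fell and 0 rose. Of the 12 falls 2 (Il1r2 and Cxcl12) reached the filter only through the AdGFP libraries. Il1a, a cytokine stored in keratinocytes, fell from 5.44 and 5.65 RPKM to 1.99 and 1.18 RPKM (-1.56 ± 0.22, limma adjusted p = 0.00621), and the prostaglandin synthase gene Ptgs2 from 64.7 and 104 RPKM to 26.4 and 35.0 RPKM (-1.42 ± 0.25, adjusted p = 0.0118). The member that rose was the acute phase gene Saa3, from 1.97 and 0.647 RPKM to 53.4 and 9.39 RPKM (3.78 ± 0.56, adjusted p = 0.00743). Il1a and Ptgs2 passed without the block and Saa3 did not (0.0685). All 3 were lost without knockout AdGFP replicate 2 (0.0557, 0.0941 and 0.0510).

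Of 41 interferon-stimulated genes 28 were tested. Of these 16 rose and 0 fell, against 18.8% and 5.64% of all genes, with a median of 0.97 beside 0.21 over all genes. Below the filter the list was mixed. Ifit2 went from 0.745 and 0.980 RPKM to 0.418 and 0.239 RPKM, and Ifi44 and Oas2 were also lower in both pairs. Mx1, Oas3, Oasl1, Rsad2, Dhx58 and Cmpk2 were higher in both pairs, and Ifnb1 was at 0 in all 4 libraries. Irf7, the factor that amplifies the interferon response, went from 7.10 and 0.729 RPKM to 39.1 and 7.54 RPKM (2.55 ± 0.41, limma adjusted p = 0.00934). Bst2, which tethers budding viruses, went from 28.5 and 9.56 RPKM to 161 and 42.1 RPKM (2.28 ± 0.48, adjusted p = 0.0190), and Stat2, a signal transducer, from 13.4 and 7.50 RPKM to 34.1 and 21.1 RPKM (1.37 ± 0.24, adjusted p = 0.0109). Each was higher in batch A than in batch B under either virus. After scaling 8 of the 28 rose, and without the block 0 passed (Stat2 0.0552, Irf7 0.194). In antigen processing 7 of 16 rose and 0 fell, among them the class I gene H2-D1 (213 and 152 to 474 and 344 RPKM, 1.16 ± 0.24, adjusted p = 0.0175); after scaling 2 rose. Class I genes are near copies of each other and their split of reads is uncertain.

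Genes of cell division held few calls, and their pairs pointed in opposite directions. The summed RPKM of the 30 mitotic genes went from 618 to 924 in pair 1 and from 1024 to 765 in pair 2, and that of the 39 replication and G1/S genes from 855 to 1385 and from 1321 to 1252. Of the 30 mitotic genes 0 passed in limma, at adjusted p of 0.0618 or more and with 2 at an unadjusted p under 0.05, and their changes ran from -0.32 for Cenpe to 0.74 for Cdc20. Of 39 replication and G1/S genes 6 rose, a share no higher than the 18.8% of all genes, and 0 fell, against 5.64%. Ccnd2, a G1 cyclin gene, went from 78.9 and 75.7 RPKM to 156 and 189 RPKM (1.15 ± 0.17, adjusted p = 0.00769) and Ccne1 rose by 1.10 ± 0.23. Both passed without the block, and after scaling 3 of the 39 rose. Of 28 p53 target genes 8 rose and 4 fell, against 18.8% and 5.64% of all genes. The growth factor gene Gdf15, which reached the filter only through the AdDlx3 libraries, rose by 1.70 ± 0.25. The cell death gene Bax rose by 0.93 ± 0.13 and the kinase gene Plk3 fell by 1.73 (SE 0.27). After scaling 4 of the 28 rose and 5 fell. With 1 knockout library left out, adjusted p reached 0.0684 for Ccnd2, 0.115 for Ccne1, 0.0599 for Gdf15, 0.0562 for Bax and 0.0584 for Plk3.

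Chaperone genes moved both ways and housekeeping lists held few calls. Of 19 chaperone genes 7 rose and 3 fell, against 18.8% and 5.64% of all genes. Hspa8, the constitutive Hsp70, went from 973 and 1338 RPKM to 2144 and 2681 RPKM (1.07 ± 0.23, limma adjusted p = 0.0212), while Hspb1, a small heat shock protein of keratinocytes, dropped from 3328 and 2619 RPKM to 1645 and 763 RPKM (-1.40 ± 0.29, adjusted p = 0.0184). Neither passed without the block (0.130 and 0.102), and after scaling 1 chaperone gene rose and 4 fell. Of 50 chromatin genes 10 rose and 0 fell, which is close to the 18.8% of all genes; Ehmt2, a histone methyltransferase gene, rose by 0.85 ± 0.14 and the genome organiser gene Satb1 by 1.28 ± 0.24. Of 78 cytoplasmic ribosomal protein genes 0 passed in limma, at adjusted p of 0.0570 or more and with 8 at an unadjusted p under 0.05. Of 75 respiratory chain genes 4 rose, and 0 after scaling. Of 40 splicing genes 1 rose, and of 33 stress response genes 2 rose and 1 fell. Few genes were tested in 3 further lists: 1 of 2 hair shaft and companion layer genes fell, 1 of 4 neuronal genes rose and 1 fell, and 1 of 5 bone and tooth mineralisation genes fell. The hair shaft and companion layer gene that fell reached the filter only through the AdGFP libraries.

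**Figure D4:**
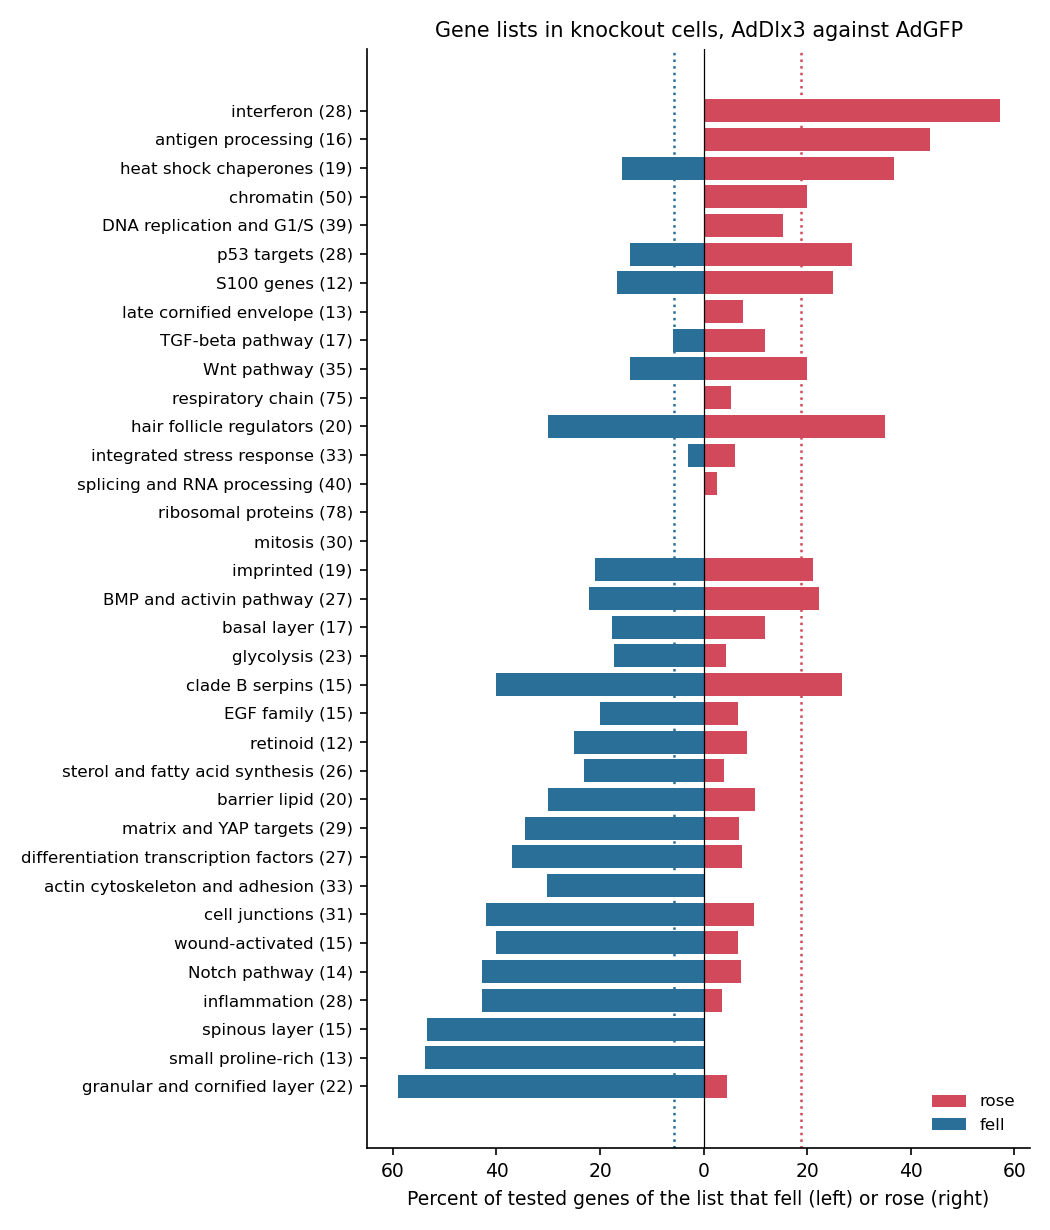
Percent of the tested genes of each list that fell (blue, left) or rose (red, right) with AdDlx3 in knockout cells at a limma adjusted p under 0.05, with the number tested in brackets; dotted lines mark the 5.64% of all genes that fell and the 18.8% that rose. Interferon genes stand at one end (16 of 28 rose) and granular and cornified genes at the other (13 of 22 fell); lists with fewer than 10 tested genes are not drawn.

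Matrix and actin genes fell more often than they rose. Of 29 matrix and YAP-responsive genes 10 fell and 2 rose, against 5.64% and 18.8% of all genes. Among these falls 1 reached the filter only through the AdGFP libraries. Below the filter the list was mixed. Ankrd1 was higher in both pairs, at 0.0630 and 0.160 RPKM with AdGFP and 0.398 and 1.77 RPKM with AdDlx3. Twist1 and Zeb1 were also higher in both pairs, and Lox and Cdh2 were lower in both. Ccn2, a connective tissue growth factor and YAP target, fell from 158 and 198 RPKM to 47.0 and 33.5 RPKM (-2.14 ± 0.33, limma adjusted p = 0.00821), and the receptor kinase gene Axl from 119 and 167 RPKM to 34.9 and 17.0 RPKM (-2.51 ± 0.51, adjusted p = 0.0168). Both passed without the block, and both lost their calls without knockout AdGFP replicate 2 (0.0700 and 0.118). Of 33 actin and adhesion genes 10 fell and 0 rose; the crosslinker gene Actn1 fell from 392 and 527 RPKM to 175 and 174 RPKM (-1.38 ± 0.25, adjusted p = 0.0121) and the membrane linker gene Msn by 1.52 (SE 0.28).

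Of 31 tested cell junction genes 13 fell and 3 rose, against 5.64% and 18.8% of all genes. The barrier claudin gene Cldn1 fell from 150 and 112 RPKM to 35.4 and 8.89 RPKM (-2.82 ± 0.54, limma adjusted p = 0.0140), Cldn4 from 248 and 227 RPKM to 83.2 and 33.5 RPKM (-2.16 ± 0.51, adjusted p = 0.0276) and E-cadherin (Cdh1) from 312 and 257 RPKM to 178 and 134 RPKM (-0.87 ± 0.15, adjusted p = 0.0109). Beside Cldn7, the desmoglein gene Dsg2, a form of simple and basal epithelia, rose from 16.1 and 17.3 RPKM to 37.1 and 37.2 RPKM (1.13 ± 0.14, adjusted p = 0.00455), whereas Dsg3 fell by 1.36 (SE 0.35). The tight junction scaffold gene Tjp3 rose by 2.04 ± 0.27. Cldn7 and Dsg2 were robust. Without the block Cldn1 (0.122), Cldn4 (0.135), Cdh1 (0.0951), Dsg3 (0.250) and Tjp3 (0.0609) did not pass.

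Clade B serpins, intracellular protease inhibitors encoded in clusters, split: 4 of 15 rose and 6 fell, against 18.8% and 5.64% of all genes. Of the rises Serpinb3c reached the filter only through the AdDlx3 libraries, and 1 of the falls reached it only through the AdGFP libraries. These counts are thus partly set by the filter. Serpinb3c rose beside Serpinb7, from 0.737 and 0.0562 RPKM to 3.77 and 3.47 RPKM (2.31 ± 0.26, limma adjusted p = 0.00397), and both were robust. Serpinb12 rose by 2.62 ± 0.23 and Serpinb6c fell from 17.3 and 8.30 RPKM to 1.67 and 0.958 RPKM (-2.82 ± 0.28, adjusted p = 0.00325); neither passed without the block (0.0933 and 0.0602). Serpinb3 and Serpinb6 genes have near copies in the mouse, so their values are uncertain.

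Of 19 imprinted genes 4 rose, a share near the 18.8% of all genes, and 4 fell, against 5.64%. Peg10, which reached the filter only through the AdDlx3 libraries, had the largest rise, with Mest at 1.57 ± 0.28 and Cdkn1c at 1.31 ± 0.28. H19, a long noncoding RNA, fell from 319 and 123 RPKM to 59.4 and 33.6 RPKM (-2.13 ± 0.21, limma adjusted p = 0.00313) and its neighbour Igf2, a growth factor gene, from 33.0 and 26.8 RPKM to 18.7 and 12.3 RPKM (-0.95 ± 0.16, adjusted p = 0.00957). Peg3 fell by 1.501 (SE 0.22). Peg10 was robust; without the block H19 (0.0641), Igf2 (0.0813) and Mest (0.118) did not pass, and Peg3 and Cdkn1c did.

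Among the tested genes of glucose use the falls were largest in the transporters, of which Slc2a3 reached the filter only through the AdGFP libraries. Slc2a1, the main glucose transporter of keratinocytes, fell from 506 and 255 RPKM to 115 and 59.2 RPKM (-2.12 ± 0.22, limma adjusted p = 0.00364), and Slc2a3, a transporter of higher affinity, from 5.23 and 17.8 RPKM to 0.591 and 0.854 RPKM (-3.08 ± 0.48, adjusted p = 0.00860). The muscle phosphofructokinase gene Pfkm rose from 5.79 and 2.61 RPKM to 29.8 and 26.7 RPKM (2.70 ± 0.37, adjusted p = 0.00590) and was robust. In all, 4 of 23 glycolysis genes fell and 1 rose, and over all genes 5.64% fell and 18.8% rose. Of 26 sterol and fatty acid synthesis genes 6 fell, Msmo1 (-1.06 ± 0.18) and Hmgcs1 (-1.14 ± 0.20) among them, and 1 rose; after scaling 12 fell. Of 20 barrier lipid genes 6 fell, among them the ceramide synthase gene Cers3 (-1.47 ± 0.21), and 2 rose, including the sphingomyelinase gene Smpd1 (1.26 ± 0.18). Of 12 retinoid genes 3 fell, with Rdh12 at -2.25 ± 0.28 beside Crabp2, and 1 rose. Among these falls 1 reached the filter only through the AdGFP libraries. Without the block Slc2a1 (0.0735), Hmgcs1 (0.0906), Cers3 (0.184) and Rdh12 (0.202) did not pass.

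Markers of other cell types had lower sums than the keratinocyte markers, and some of them passed. Over all genes 18.8% rose and 5.64% fell, and after scaling 9.66% rose and 8.54% fell. The summed RPKM of 10 fibroblast markers was 51.5 and 46.4 with AdGFP and 69.6 and 53.4 with AdDlx3; of 6 tested, Col1a2 rose by 1.24 ± 0.21 and Col1a1, Col6a3 and Col3a1 fell (-1.16, -0.77 and -0.59). That of 10 melanocyte markers was 280 and 229 against 238 and 170, with 1 of 10 lower (Oca2, -0.66 ± 0.16) and 5 lower after scaling. Schwann cell markers summed to 35.7 and 30.0 against 36.5 and 28.7, immune markers to 28.3 and 13.9 against 26.4 and 18.2, and endothelial markers to 3.69 and 6.40 against 9.05 and 5.67. Of the markers of simple epithelium, Krt19 rose from 0.707 and 2.71 RPKM to 3.32 and 14.5 RPKM (1.94 ± 0.21, limma adjusted p = 0.00368), Krt18 rose by 0.72 ± 0.19 and Krt7 fell by 2.80 (SE 0.60). Of 3 sebocyte markers 1 rose and 1 fell, the 10 muscle markers summed to at most 10.1 RPKM in a library, and of erythroid and fat cell markers 0 reached the filter. None of these marker calls passed without the block. The part of other cell types in the results was not tested.

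The largest unevenness between replicate pairs was in 5 genes of mean RPKM of at least 10. Tmem45a rose by 1.44 in pair 1 and 4.63 in pair 2, with AdGFP replicate 1 at 9.10 RPKM and AdGFP replicate 2 at 0.659 RPKM. Krt5, Krt6a and Megf6 fell more in pair 2. Ccdc68 rose in pair 1, from 10.3 to 32.9 RPKM, and was lower in pair 2, 21.5 against 10.3 RPKM. The deposited sample sheet puts replicate 1 in batch A and replicate 2 in batch B, so a batch and a replicate cannot be told apart.

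The remaining question was whether cells without their own Dlx3 answered differently from wild-type cells. In the test of that difference 0 of 11635 genes passed in limma (0.00%, smallest adjusted p = 0.999), and 139 had an unadjusted p under 0.05. The genes called were chosen on their response in knockout cells, which raises its size there, so the medians are a description. The median response of the 2186 genes that rose was 0.90 in knockout cells and 0.79 in wild-type cells, and that of the 656 that fell was -1.21 and -1.20. Of the rises 2178 were above 0 in wild-type cells, and of the falls 653 were below 0. The responses of both genotypes share batches but no library, and correlated at 0.929 across genes as a description. Krt27 changed by 6.56 in knockout and 6.46 in wild-type cells, Krt25 by 5.87 and 5.90, Serpinb7 by 6.47 and 6.55 and Krt6a by -3.87 and -4.25. With 2 libraries a group a difference that did not pass is not shown to be absent: the difference was 0.11 ± 0.78 for Krt27 and 1.13 ± 0.59 for Dlx3.

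The 5 genes with the smallest unadjusted p of the difference were Rn45s, Mir6236, Lars2, Scand1 and H4c2. Rn45s, the ribosomal RNA precursor, was at 424 and 355 RPKM with AdGFP and 436 and 419 RPKM with AdDlx3 in knockout cells (0.14 ± 0.21), while wild-type cells changed by -2.20. Mir6236 and Lars2 changed by 0.72 and 0.55 in knockout cells and by -1.68 and -1.56 in wild-type cells. Scand1, a SCAN domain gene, rose in knockout cells from 37.4 and 44.7 RPKM to 84.6 and 90.6 RPKM (1.09 ± 0.16, limma adjusted p = 0.00769; 0.0553 without knockout AdGFP replicate 1) and changed by -0.07 in wild-type cells. None of these differences passed.

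**Figure D5:**
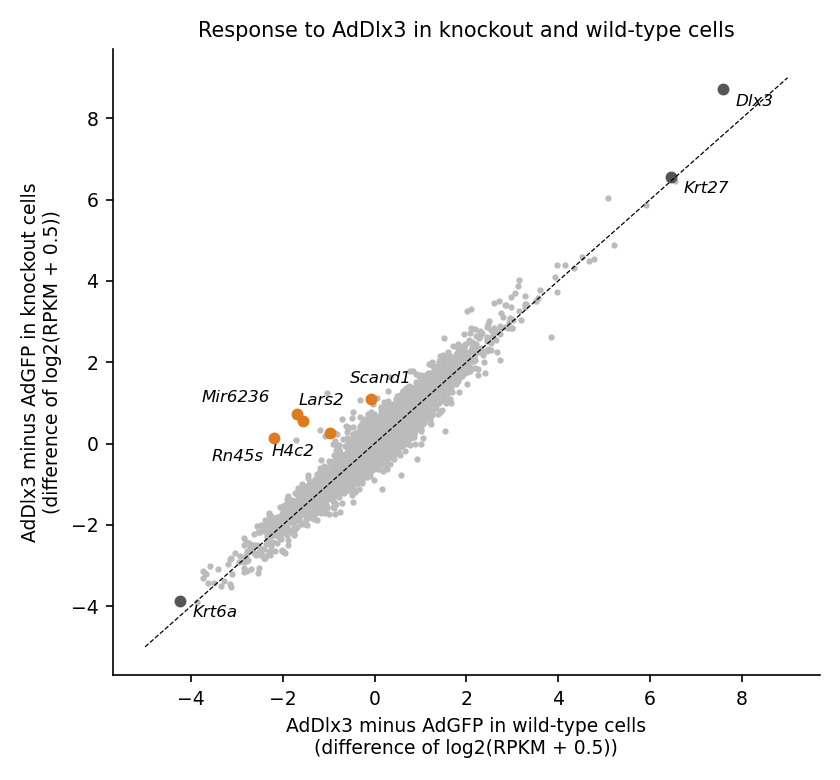
Response to AdDlx3 in wild-type cells (horizontal axis) and knockout cells (vertical axis), as the difference of log2(RPKM + 0.5) between AdDlx3 and AdGFP; each point is a gene, the dashed line marks equal response, and orange points are the 5 genes with the smallest unadjusted p of the difference. Points follow the line from Krt6a to Dlx3; Rn45s, Mir6236 and Lars2 lie above it and did not pass.

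Of the genes tested here, 285 had q under 0.05 for this contrast in the authors' deposited table, 272 higher and 13 lower, and 265 of them were also called in the paired fit.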

How the data were processed

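The 8 libraries held polyadenylated RNA of cultured epidermal cells and, per the labels, were made with a NEBNext Ultra II kit. The submitters' processing notes name bcl2fastq 2.20.0.422, TopHat2 2.1.1, Partek and the build mm10; annotation, counting settings and strand use are named neither there nor in the labels. RPKM values were deposited by the authors for 26202 genes and, in a sample sheet, the count of alignments of each library. The authors' deposited comparison table holds log2 group means, p-values and q-values, the ratio of each contrast and a signed fold change score; only its q-values and fold directions were used.

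These were put on the log2(RPKM + 0.5) scale and tested with limma 3.58.1 in R 4.3.3, its variances moderated along an intensity trend, since RPKM does not suit a count test. The fit held all 8 libraries, 4 groups and the replicate number as a block, with 3 residual and 3.66 prior degrees of freedom. Adjusted p is Benjamini-Hochberg over 11635 genes, two-sided, with 0.05 as threshold. The sample sheet puts replicate 1 in batch A and replicate 2 in batch B. Libraries of the same number deviated together from group means. These deviations correlated at 0.876 (AdDlx3) and 0.788 (AdGFP) between genotypes under the same virus, and at 0.34 to 0.61 between viruses. Part of the replicate shift thus went with the virus, which a block common to all groups does not take out. The SE of the AdDlx3 response may therefore be too small, and that of the difference between genotypes too large. Depth per gene is not recoverable from RPKM, so no counting intervals are given.

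Named genes were Dlx3, the 15 largest rises and falls among calls without overlap whose pairs both moved by at least 1, up to 4 genes of smallest adjusted p per list and others needed to account for a list, the 10 largest changes in mean RPKM, the 5 genes most unlike between pairs and the 5 of smallest p for the difference between genotypes. The lists, 42 of pathways and 11 of cell markers, and the genes were chosen with earlier results of these data known; some genes that meet these rules are not reported here. Positions are from GENCODE (GRCm38) and promoters from RefSeq (GRCm38.p6). The fit was also run on simulated data with independent noise and a replicate shift common to all groups. That simulation held no replicate shift that went with the virus, so it cannot show how such a shift affects the calls. Alternatives were no block, other pseudocounts (0.1 and 1), other filters, median-of-ratios scaling, no trend, the knockout libraries alone and each library left out.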

Additional observations from a re-analysis of the deposited data

Results flagged for a closer look

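Among the reported genes that met the naming rules, 5 moved in opposite directions in knockout and wild-type cells, with both replicate pairs of each genotype on the same side. Rn45s, Mir6236, Lars2 and H4c2 had been picked for a small unadjusted p of the difference between genotypes. For these genes the opposite directions are thus not independent of the choice. The difference of the responses, knockout minus wild type, was 2.34 for Rn45s, 2.40 for Mir6236, 2.11 for Lars2 and 1.22 for H4c2. It was -0.56 for Tyrp1. The pairs of Rn45s changed by 0.04 and 0.24 in knockout cells and by -2.34 and -2.06 in wild-type cells, those of Mir6236 by 0.57 and 0.86 against -2.28 and -1.08, and those of Lars2 by 0.33 and 0.77 against -2.17 and -0.96. In the limma test of the difference none of the 5 passed (adjusted p = 0.999 for each). Rn45s is ribosomal RNA and is not polyadenylated, and the share of it in a library was not controlled for in the fit.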

How the results depend on the processing

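Counts of calls moved more than directions. Against 2842 calls (2186 higher, 656 lower) with the replicate block, the fit with no replicate block gave 698 (579 and 119), no filter on low values 1681 (1415 and 266), a filter of 5 RPKM 1816 (1343 higher), median-of-ratios scaling 1124 higher and 994 lower, and the 4 knockout libraries with no replicate block 180 (140 and 40). Without a library, calls ran from 444 to 2916, rises from 351 to 2186 and falls from 93 to 731; the lowest were without knockout AdGFP replicate 2. Other pseudocounts, no trend and the remaining filter kept the counts within 1.5 times. The difference between genotypes had 0 calls except with no filter, where Mir7083 (0.55, limma adjusted p = 0.0469) was 1 call. With 2 RPKM as the level for on, 33 genes switched on and 2 off.

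Among the 303 called genes that were named or listed, 223 lost their call with no replicate block, 50 after scaling, 245 without knockout AdGFP replicate 2, 198 and 182 without knockout AdDlx3 replicates 1 and 2, 181 without knockout AdGFP replicate 1, and 12 to 14 without a wild-type library; none of them changed direction. A fit without a library leaves 1 sample in a group, which is then assumed to vary like the others. Directions turned only in genes that did not pass: after scaling Cd68 (-0.19) and Cdh11 (-0.10), and over the libraries left out Ccdc68 (-0.71 to 1.31), Cd68 (-0.30 to 0.34), Cdh11 (-0.17 to 0.27), Cenpa (-0.082 to 0.77), Erbb3 (-0.033 to 0.47), Krt75 (-0.54 to 0.52) and Krt8 (-0.33 to 0.12). The cause was not tested.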
